A study of Drosophila melanogaster with 6 samples.

Results

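Digestive lipases of Drosophila melanogaster were examined in whole males fed methamphetamine (METH), an amphetamine drug, for 24 h. The genes were mag, whose older name is CG5932, and CG6296, CG6295, CG17192, CG17191, CG6283, CG6277 and CG6271. They were chosen as a family because mag and CG17192 had been seen to be lower in METH-treated flies in this same comparison, so the differences between the diets are given as a description of these arrays and the number of genes past a threshold is no independent test of them. A gene counted as measured where the platform annotation pairs a probe set, a group of oligonucleotides that interrogates a transcript, with that gene alone. This held for 7 of the 8 genes, each with 1 probe set, out of 11982 genes so measured on the array. CG6277 had no probe set of its own, and a probe set paired with both CG6271 and CG6277 is described separately. METH-treated flies were virgin w1118 males, a white-eyed laboratory strain, that were cultured to 5 days of age and then kept for 24 h on standard diet with 0.6% (w/v) METH. Control flies were virgin w1118 males of the same age kept for the same time on that diet without METH, and the labels add blue diet for both groups without saying what it was. Each of the 3 samples per diet was a separate lot of 20 whole flies whose RNA was extracted together and hybridized to its own Affymetrix array.

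Dietary fat reaches the insect midgut mainly as triacylglycerol. Lipases secreted by the enterocytes, the absorptive cells of the midgut, release fatty acids from it, which the same cells take up, rebuild into lipids and pass to the hemolymph on lipoproteins. The gene mag encodes Magro, a lipase of the acid lipase family that in Drosophila breaks down dietary triacylglycerol in the gut and also cleaves cholesterol esters. The other genes encode proteins that resemble pancreatic lipase of mammals, the enzyme that digests fat in the intestine, and their roles are inferred from that resemblance. In RNA from whole flies, a lower signal from fewer cells of a type cannot be told apart from less RNA per cell, and the site of expression of these genes could not be checked.

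The deposited values are linear signals. Each was divided by the signal of the actin probe set AFFX-Dros-ACTIN_M_r on the same array, the reference that the methods name, and is given as a percentage of it. The actin signal itself was 831, 868 and 699.99 on the METH arrays, against 1218, 922 and 984 on the control arrays. With this scaling the median log2 difference (METH minus control) of all 18769 probe sets was 0.24, so each difference below is also given relative to that median. Median signals of the arrays were 51.7 to 66.1 on METH and 61.0 to 70.3 on control. The lowest rank correlation between arrays of the same diet was 0.968, and the lowest between a METH and a control array was 0.966. Control probe sets named Tag, 17 in number, served as a gauge of dim signals, and the brightest of them reached 8.81 to 18.6 on the METH arrays and 12.3 to 15.5 on the control arrays.

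mag was lower in METH-treated flies on every array. Its probe set, 1636583_at, read 33.3, 36.6 and 47.5% of actin in METH-treated flies, against 59.6, 109 and 112% in control flies. The groups did not overlap, and control replicate 1 stood well below the other controls. The means were 39.1 ± 7.45% in METH-treated flies and 93.4 ± 29.2% in control flies (SD, n = 3 each), a log2 difference of -1.22 with a standard error (SE) of 0.23, or -1.46 relative to the median probe set. The signals as deposited were 276, 318 and 333 on the METH arrays, against 726, 1004 and 1098 on the control arrays. The groups did not overlap on this scale either. mag lies within the span of another gene, atk, in the RefSeq gene table. The atk probe set read 2.40, 3.63 and 3.29% of actin in METH-treated flies, against 2.01, 2.41 and 1.90% in control flies. These values overlapped, and their log2 difference was of the opposite sign to that of mag (0.55, SE 0.35).

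**Figure D1:**
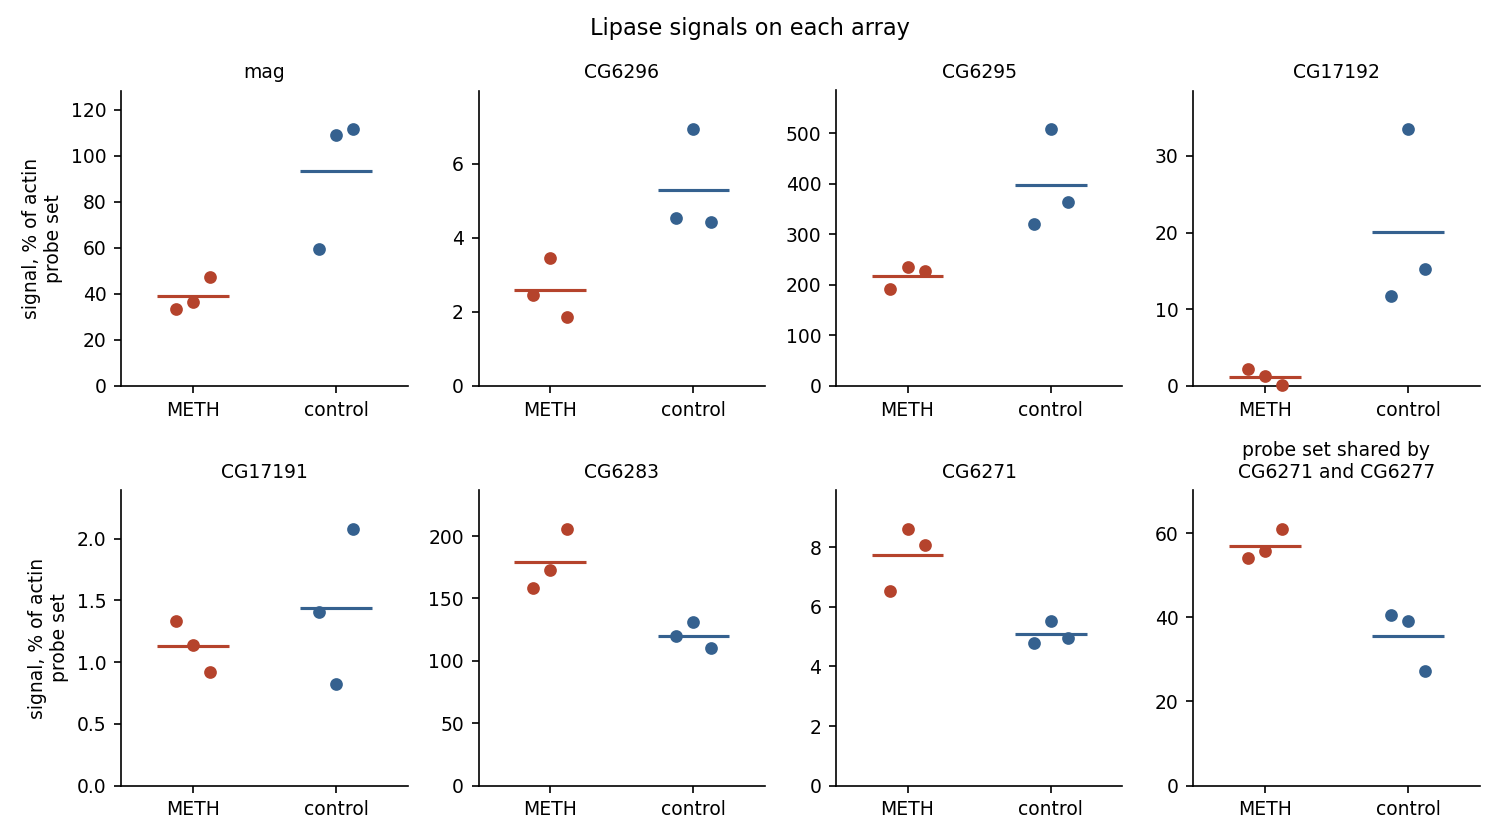
Signals of the lipase probe sets on each array, as a percentage of the actin probe set of that array (vertical axes, linear, each panel with its own range), in METH-treated and control flies. Points are arrays (replicates 1 to 3 from left to right) and bars are means. All METH points of mag, CG6296, CG6295 and CG17192 lie below all control points, those of CG6283, CG6271 and the shared probe set lie above, and those of CG17191 overlap.

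CG17192 differed most of the 7 genes. Probe set 1629308_at read 2.21, 1.30 and 0.147% of actin in METH-treated flies, against 11.7, 33.5 and 15.2% in control flies. Every METH array lay below every control array, with control replicate 2 highest and METH replicate 3 lowest. The means were 1.22 ± 1.03% in METH-treated flies and 20.1 ± 11.7% in control flies (SD, n = 3 each), and the log2 difference was -4.59 (SE 0.76), or -4.83 relative to the median probe set. The size of this difference is uncertain, because the METH signals had sunk to the range of the Tag controls. As deposited, they were 18.3, 11.3 and 1.03, against 142, 309 and 149 on the control arrays. The signals of METH replicates 2 and 3 were below the brightest Tag control of their arrays, while all control signals were above it. With those 2 METH signals raised to the brightest Tag control, a choice made after the values were seen, the log2 difference was -3.15, and the control signal was 8.89 times the METH signal, in place of 24.1 times with the values as measured.

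CG6295 and CG6296, neighbors on the chromosome, were also lower on all METH arrays. The probe set of CG6295, 1635868_at, read 191, 235 and 227% of actin in METH-treated flies, against 321, 508 and 364% in control flies. Its log2 difference was -0.85 (SE 0.21), or -1.09 relative to the median probe set. The probe set of CG6296, 1632215_at, read 2.45, 3.45 and 1.87% of actin in METH-treated flies, against 4.54, 6.94 and 4.42% in control flies. Its log2 difference was -1.05 (SE 0.34), or -1.29 relative to the median probe set. For both genes, as for CG17192, control replicate 2 gave the highest value, on the deposited scale too. Neither gene overlapped between the diets with the signals as deposited, which for CG6295 were 1590, 2036 and 1589 in METH-treated flies, against 3903, 4684 and 3584 in control flies. Those of CG6296 were 20.4, 30.0 and 13.1 in METH-treated flies, against 55.2, 64.0 and 43.5 in control flies. On METH replicate 3 the CG6296 signal was only just above the brightest Tag control (12.5), so the size of its difference is uncertain.

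The remaining genes did not share this direction. CG6283, probe set 1636343_at, read 158, 173 and 206% of actin in METH-treated flies, against 120, 131 and 109.97% in control flies. CG6271, probe set 1635045_at, read 6.54, 8.62 and 8.06% in METH-treated flies, against 4.80, 5.54 and 4.97% in control flies. On this scale all METH values of both genes lay above all control values, with log2 differences of 0.57 (SE 0.17) for CG6283 and 0.59 (SE 0.24) for CG6271. These were 0.33 and 0.35 relative to the median probe set. The probe set shared by CG6271 and CG6277, 1623027_s_at, read 54.2, 55.6 and 61.0% of actin in METH-treated flies, against 40.6, 39.2 and 27.2% in control flies (log2 difference 0.70, SE 0.18), and cannot be assigned to either gene. The separation of CG6283, CG6271 and the shared probe set depended on scaling. As deposited, the signals of CG6283 were 1317, 1501 and 1441 in METH-treated flies, against 1459, 1209 and 1082 in control flies, and overlapped. Those of CG6271 (54.4, 74.9 and 56.4 in METH-treated flies, against 58.5, 51.1 and 48.9 in control flies) and of the shared probe set overlapped as well. CG17191, probe set 1634323_at, gave signals of 11.1, 9.89 and 6.42 on the METH arrays, against 17.1, 7.56 and 20.5 on the control arrays. On 2 METH arrays and 1 control array these were below the brightest Tag control, so that no difference in either direction was detectable for CG17191 (log2 difference -0.26, SE 0.51).

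Order along the chromosome is given as a description, since the family was chosen from this same comparison and no positional pattern was tested. In the RefSeq table the 7 genes other than mag follow each other on chromosome arm 3R with no other gene between them, in the order CG6296, CG6295, CG17192, CG17191, CG6283, CG6277 and CG6271, whereas mag lies on arm 3L. Read in that order, the first 3 genes were lower on all METH arrays, CG17191 was too dim to read, and CG6283 and CG6271 were not lower. The genes on either side of the cluster overlapped between the diets, as did most probe sets. On the actin scale all METH values lay below all control values for 2.58% of probe sets and above for 15.7%. CG31077, next to CG6296, read 6.89, 15.9 and 8.80% of actin in METH-treated flies, against 5.34, 14.5 and 4.58% in control flies. TwdlT, next to CG6271, read 8.22, 8.41 and 10.8% in METH-treated flies, against 8.12, 7.86 and 9.47% in control flies.

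**Figure D2:**
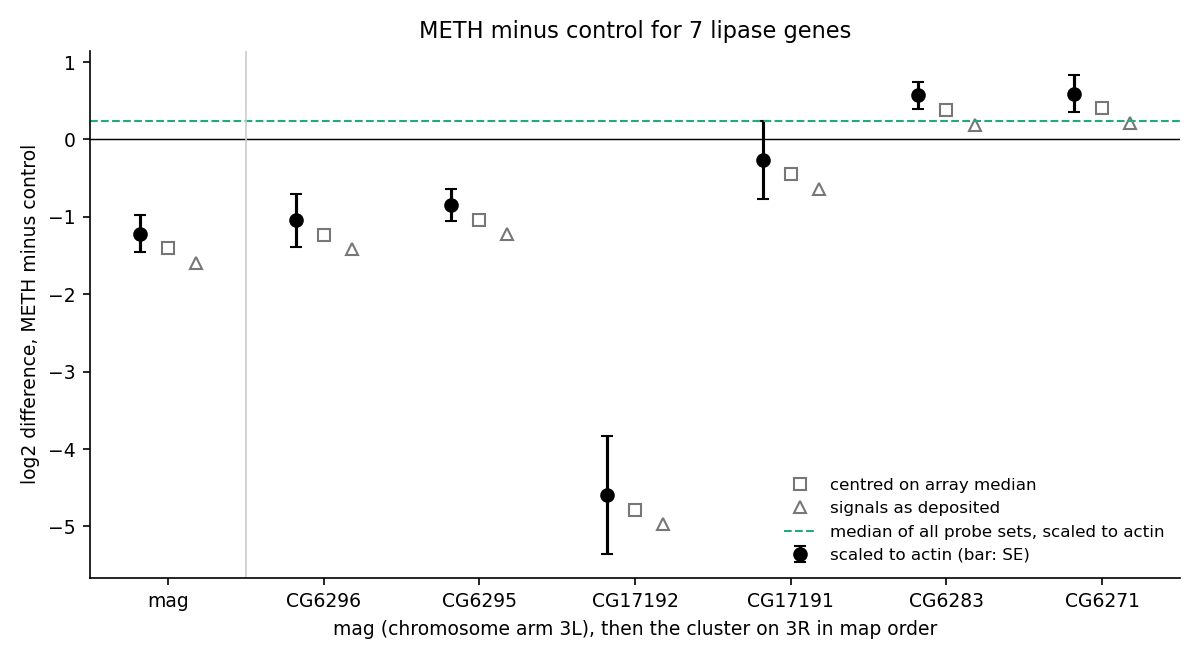
Log2 difference, METH minus control (vertical axis), for mag and then for the cluster genes in map order (horizontal axis), scaled to actin (filled circles, bars are SE, n = 3 arrays per diet), centered on the array median (squares) or as deposited (triangles). The dashed line is the median of all probe sets scaled to actin, 0.24. The first 3 cluster genes lie at -0.85 or lower, and CG6283 and CG6271 lie above 0 under each scaling shown.

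Ratios of signals from the same array do not use the actin reference, but take the gene in the denominator as the reference instead. The signal of CG6283 was taken as the denominator, a choice made after its values were seen. The ratio of CG6295 to CG6283 was 1.21, 1.36 and 1.10 in METH-treated flies, against 2.68, 3.88 and 3.31 in control flies, with means of 1.22 ± 0.128 and 3.29 ± 0.601 (SD, n = 3 each) in METH-treated and control flies. The ratio of mag to CG6283 was 0.2100, 0.212 and 0.231 in METH-treated flies, against 0.498, 0.831 and 1.01 in control flies. The ratios of CG6296 and CG17192 to CG6283 likewise did not overlap between the diets. By contrast, the ratio of CG6271 to CG6283 was 0.0413, 0.0499 and 0.0392 in METH-treated flies, against 0.0401, 0.0423 and 0.0452 in control flies, and overlapped. Among the genes that were lower, the ratio of CG6295 to CG6296 also overlapped, at 78.0, 68.0 and 121 in METH-treated flies, against 70.6, 73.2 and 82.5 in control flies. The value of 121 rests on the dim CG6296 signal of METH replicate 3. Since CG6283 had already been seen to be higher on all METH arrays on the actin scale, the choice of this denominator fixed the separation of the ratios of genes that were lower on all METH arrays, and nothing is read from it.

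**Figure D3:**
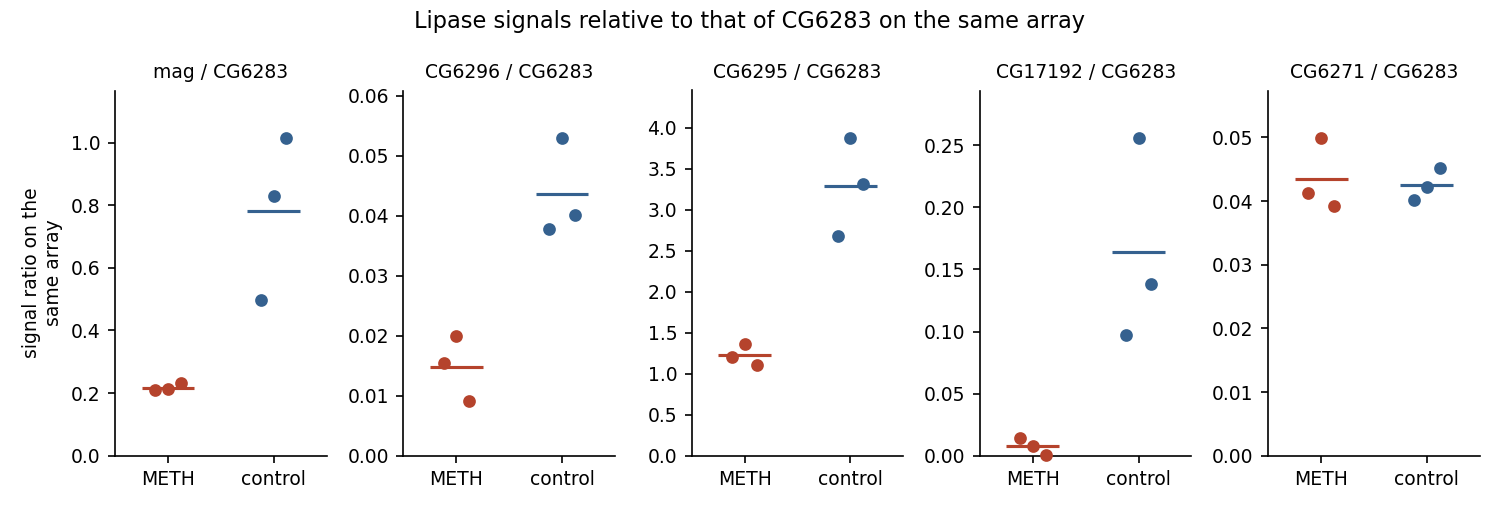
Signal of each lipase probe set divided by that of CG6283 on the same array (vertical axes, linear, each panel with its own range), in METH-treated and control flies. Points are arrays and bars are means. The METH ratios of mag, CG6296, CG6295 and CG17192 lie below all control ratios, and those of CG6271 overlap.

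Set beside the whole array, the calls were as follows. With limma, which fits all probe sets together and lets their spread vary with the signal, and Benjamini-Hochberg adjustment over 18769 probe sets, 2 of the 7 genes were lower at an adjusted p under 0.05, CG17192 and mag, where 0.416% of all probe sets were lower. None of the 7 was higher, where 0.842% of all probe sets were higher, and 2 of the 7 were higher at an unadjusted p under 0.05 (CG6283 and CG6271), where 9.38% of all probe sets were. In all, 78 probe sets were lower and 158 higher. With each array centered on its median these counts were 169 and 131, and with the signals as deposited 381 and 114. All METH values lay below all control values for 4 of the 7 genes on the actin scale, against 2.58% of all probe sets, and for the same 4 with the signals as deposited, against 13.6% of all probe sets. The METH arrays were all above the control arrays for 2 of the 7 on the actin scale, against 15.7% of all probe sets, and for none as deposited, against 2.61%. With median-centered arrays 4 of the 7 were below and 2 above, against 5.7% and 7.33% of all probe sets. The median log2 difference of the 7 genes was -0.85, beside 0.24 for all probe sets. The family had been chosen from this comparison, so nothing is read from these counts. The call of mag was lost when control replicate 2, control replicate 3, METH replicate 1 or METH replicate 2 was left out. The calls of both mag and CG17192 were lost with a floor under low values, without the trend of limma's prior variance on the signal, and by the methods' t-test. CG6295 passed under each of the other scalings.

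The probe sets most like each of these genes across the arrays were sought among 10126 others that were paired with 1 gene and not dim. Likeness was measured by Pearson's r of the actin-scaled log2 values over the 6 arrays, which share the reference and the difference between the diets. For mag these were CG2444 (r = 0.996), CG15199 (r = 0.994), Ag5r2 (r = 0.992), Jon65Ai (r = 0.989), a Jonah family serine protease, and CG17472 (r = 0.988). For CG17192 they were CG3630 (r = 0.958), Gbs-70E (r = 0.940), which encodes a glycogen-binding subunit of a phosphatase, CG11112 (r = 0.929), its near neighbor CG6296 (r = 0.929) and CG9717 (r = 0.917). Between mag and the cluster genes r ran from -0.718 for CG6283 to 0.927 for CG6295. The named genes are the top of 10126 values of r over only 6 arrays, and shared regulation was not tested. The values of r for CG17192 rest in part on signals of METH replicates 2 and 3 that were below the brightest Tag control. Genes with a high Pearson's r can still differ between the diets by unlike amounts. The log2 difference of CG3630 between the diets was -0.12 (SE 0.15) and that of Gbs-70E was -0.39 (SE 0.17), against -4.59 for CG17192.

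Most other lipase genes did not pass the threshold, and neither did most probe sets of the array. The comparison took in 49 measured genes of 51 listed: other proteins that resemble pancreatic lipase, other acid lipases, and lipases that act inside cells on stored or membrane lipid. Of these, 2 fell and 1 rose by limma's adjusted p, where 0.416% of all probe sets were lower and 0.842% higher. At an unadjusted p under 0.05 there were 7 lower and 4 higher genes, where 2.12% of all probe sets were lower and 9.38% higher. Their median log2 difference was 0.10, or -0.15 relative to the median probe set. Among the 22 pancreatic-type lipases, CG18258 fell to 26.3 ± 8.29% of actin in METH-treated flies, against 78.7 ± 19.4% in control flies (SD, n = 3 each; log2 difference -1.60, SE 0.25, adjusted p = 0.00345 from limma). In the same list CG5966 rose to 112 ± 15.8% of actin in METH-treated flies, against 32.6 ± 3.90% in control flies (SD, n = 3 each; log2 difference 1.78, SE 0.17, adjusted p = 5.74e-05 from limma). CG14034 did not pass and overlapped between the diets on the actin scale (log2 difference -0.61, SE 0.22). Its signals did not overlap as deposited (377, 552 and 523 in METH-treated flies, against 834, 1055 and 967 in control flies) or with median-centered arrays. CG10163 did not pass and was too dim for the size of its difference to be read, with signals of 1.59, 8.22 and 5.17 on the METH arrays, against 13.0, 30.9 and 42.5 on the control arrays. All 3 METH signals and 1 control signal of CG10163 were at or below the brightest Tag control. Among the 22 acid lipases, the family of mag, CG18301 fell to 52.0 ± 20.7% of actin in METH-treated flies, against 126 ± 21.7% in control flies (SD, n = 3 each; log2 difference -1.34, SE 0.24, adjusted p = 0.00973 from limma). CG11598 and CG11600 were lower on all METH arrays without passing (adjusted p = 0.0973 and 0.178 from limma), and 2 METH signals of CG11600 were at or below the brightest Tag control. CG18258, CG5966 and CG18301 passed under all 5 scalings. CG18301 lost its call without METH replicate 1 (adjusted p = 0.0571 from limma) or METH replicate 2 (adjusted p = 0.0588), and both CG18301 and CG18258 lost it with low values floored, without the trend and by the methods' t-test. CG5966 lost it without the trend (adjusted p = 0.0559). Of the 5 intracellular lipases none passed, and bmm, which encodes the brummer lipase of fat body lipid droplets, had the smallest adjusted p (log2 difference 0.77, SE 0.19, adjusted p = 0.0769 from limma).

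Genes that act beside the lipases in digestion moved in both directions. Their lists, like those of the other lipases and of the marker genes, were chosen with earlier results of these data known. The counts are therefore a description and no independent test. None of 17 genes of lipid uptake and export passed at an adjusted p under 0.05 from limma, with 1 lower and 3 higher at an unadjusted p under 0.05. Of all probe sets, 0.416% were lower and 0.842% higher at the adjusted threshold, and 2.12% and 9.38% at the unadjusted one. Npc2c came closest, a member of the family of sterol-binding NPC2 proteins (log2 difference -1.32, SE 0.30, adjusted p = 0.0571 from limma), and Apoltp, LpR2 and LpR1, which encode a lipid transfer particle and lipoprotein receptors, had log2 differences of 0.69, 0.82 and 0.69. Of 12 carbohydrases, enzymes that cleave starch and sugars, 3 rose and none fell, where 0.842% of all probe sets were higher and 0.416% lower. They were the alpha-glucosidases Mal-A4 (log2 difference 1.91, SE 0.19), Mal-B1 (1.56, SE 0.27) and Mal-B2 (0.91, SE 0.20), of which Mal-A4 passed under all 5 scalings, Mal-B2 under 4 and Mal-B1 under 2. Mal-B2 lost its call when any array except METH replicate 2 was left out (adjusted p = 0.0535 to 0.242 from limma). Of 22 digestive proteases, 7 fell and none rose, beside the same shares of all probe sets, with a median log2 difference of -0.87. Those of smallest adjusted p were the Jonah family serine proteases Jon25Bii (log2 difference -3.25, SE 0.23), Jon25Bi (-2.98, SE 0.24), Jon99Fi (-3.94, SE 0.48) and Jon66Ci (-2.47, SE 0.35).

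Gut marker genes that encode no digestive enzyme did not pass the threshold in either direction. Over the whole array too, only 0.416% of probe sets passed as lower and 0.842% as higher. The 3 enterocyte markers measured were mex1, nub and GATAe, with log2 differences of 0.15 (SE 0.17), -0.25 (SE 0.24) and 0.10 (SE 0.24). The signs of mex1 and GATAe turned under each of the 4 other scalings. Their summed level ran from 147 to 192% of actin in METH-treated flies and from 147 to 155% in control flies, whereas the deposited signals summed to 1268 to 1342 in METH-treated flies and 1357 to 1892 in control flies, without overlap. None of 4 enteroendocrine markers and none of 2 gut progenitor markers passed. At an unadjusted p under 0.05 none of these 9 genes was lower or higher by limma, where 2.12% of all probe sets were lower and 9.38% higher. The enteroendocrine sums overlapped on the actin scale but not as deposited, at 362 to 502 in METH-treated flies and 516 to 692 in control flies. Those of the gut progenitor markers overlapped as deposited, at 62.5 to 76.9 in METH-treated flies and 74.3 to 97.0 in control flies. Of 4 markers of the male accessory gland, Acp26Aa fell (log2 difference -1.55, SE 0.24, adjusted p = 0.00303 from limma), and the summed level ran from 972 to 1426% of actin in METH-treated flies and from 1042 to 1635% in control flies. As deposited, the accessory gland sums did not overlap, at 8083 to 9981 in METH-treated flies and 12487 to 15083 in control flies. None of 4 fat body, 4 testis, 2 muscle and 1 eye marker genes passed, but the testis markers summed to 1237 to 1593% of actin in METH-treated flies and 826 to 1203% in control flies, without overlap. As deposited, the testis sums overlapped, at 10287 to 11979 in METH-treated flies and 10060 to 11098 in control flies. The part of any of these tissues in the lipase differences was not tested. The yolk protein genes Yp1, Yp2 and Yp3, which are highly expressed in females, summed to 11.5 to 14.8% of actin in METH-treated flies and 9.25 to 11.4% in control flies.

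**Figure D4:**
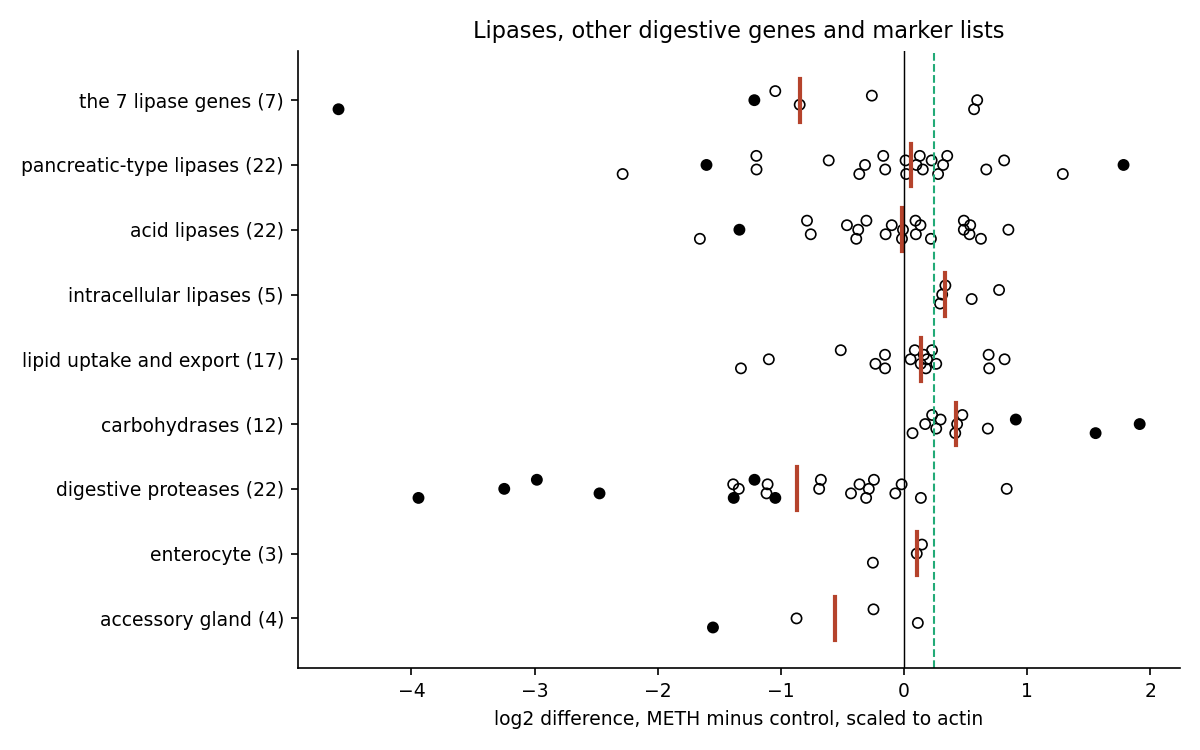
Log2 difference, METH minus control, scaled to actin (horizontal axis), of the 7 measured lipase genes (top row) and of the genes of 8 lists (number measured in brackets). Each point is a gene, filled where limma's adjusted p was under 0.05, red bars are medians and the dashed line is the median of all probe sets, 0.24. CG17192 is plotted at -4.59 as measured, and at -3.15 with its 2 dimmest METH signals set to the brightest Tag control it would lie to the right of Jon99Fi (-3.94) and Jon25Bii (-3.25). CG5966, at 1.78, stands opposite it among the pancreatic-type lipases.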

How the data were processed

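RNA of 6 samples was hybridized by the authors to Affymetrix Drosophila Genome 2.0 arrays and read with GCOS 1.4. What they deposited is a linear intensity for each probe set, with no detection calls. A scaling to a common target is not given in the sources used here. Each signal was divided by that of AFFX-Dros-ACTIN_M_r and the quotient taken to log2. The 183 AFFX probe sets were left out, and 18769 were tested with limma 3.58.1 in R 4.3.3 (lmFit, eBayes with trend, two-sided, Benjamini-Hochberg adjustment, threshold 0.05), checked on simulated data. An exact permutation test of 3 against 3 cannot go below 0.1, and the number of arrays limits the precision. Symbols were updated by gene identifier for 13544 probe sets. A gene of the lists is represented by its probe set of highest mean signal. Each of the 8 lipase genes is named, and from a list at most the 4 genes whose adjusted p was smallest. The genes, lists and rules were chosen with earlier results of these data known. Alternatives were other scalings (as deposited, median, 75th percentile, quantile), leaving out dim probe sets (below the 40th percentile), a floor at the 20th percentile, no trend, a replicate block, leaving out each array, the methods' t-test with p under 0.008 and a change of more than 1.5-fold, the threshold used for the paper's pathway results, and, both added after the values were seen, that test at the threshold its methods section gives (p of at most 0.005, at least 1.5-fold) and a floor at the Tag controls. Protein and promoter sequences were not analysed here. Plots used Python 3.11.15 and matplotlib 3.10.9.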

Additional observations from a re-analysis of the deposited data

How the results depend on the processing

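Counts are of genes that passed, for the lipases (2 lower of 7, none higher), the other lipases (2 lower and 1 higher of 49) and the digestive and gut lists (7 lower and 3 higher of 60). With the signals as deposited 6 other lipases and 15 list genes were lower, with median or 75th percentile centering 4 other lipases were, and with quantile normalization 5 other lipases and 13 list genes were. Without dim probe sets 2 other lipases were higher. With low values floored no lipase and no other lipase was lower (0 and 0), and 1 list gene was lower and 1 higher. Without the trend the counts were 0 for the lipases, 0 lower and 0 higher for the other lipases, and 1 lower and 0 higher for the lists. By the methods' t-test with p under 0.008 and a change of more than 1.5-fold 0 lipases, 0 other lipases and 4 list genes were lower, and 1 list gene was higher; over all probe sets this test called 62 lower and 234 higher, and after Benjamini-Hochberg adjustment 0 and 2. At the threshold of the methods section (p of at most 0.005), applied after the values were seen, it called 0 lipases and 0 other lipases lower, and 3 list genes lower and 1 higher (48 and 173 over all probe sets). Leaving out each array in turn gave 1 to 3 lipases lower, 1 to 3 other lipases lower and 1 to 2 higher, and 4 to 8 list genes lower and 2 to 3 higher. With an array left out, the log2 difference of CG17191 ran from -0.62 (control replicate 2) to 0.057 (control replicate 3), a change of sign. It was -0.64 with the signals as deposited, and 0.13 with dim signals set to the brightest Tag control, a choice made after the values were seen. None of the other 6 genes changed sign under any setting run. Replicate numbers are shared by the diets. Same-numbered arrays deviated together only weakly (r = 0.022, 0.041 and 0.064), beside r of -0.078 to 0.039 for differently numbered arrays. Whether same-numbered samples were handled together cannot be told from these values. With the replicate block 4 lipases were lower and 1 higher, 7 other lipases lower and 4 higher, and 12 list genes lower and 7 higher. Over all 18769 probe sets the block gave 260 lower and 1033 higher, against 78 and 158 without it. The causes of these shifts were not tested. Dim signals limit CG17191, CG17192, CG10163 and CG11600, and the CG6296 signal on METH replicate 3 was close to the brightest Tag control.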
